A study of Mus musculus with 8 samples.

Results

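The genes described here are Gpi1, Aldoa, Tpi1, Gapdh, Pgk1, Pgam1, Eno1, Pkm, Ldha and Slc16a3. They run from an early step of glycolysis, that of Gpi1, to the export of lactate, and leave out phosphofructokinase. They were taken by symbol and not by a rule on their measured values, though earlier results of these data were known. All 10 were found among the 56859 genes of the deposited tables. RNA of BV2 cells, an immortalized mouse microglial line with wild-type genotype, was sequenced in bulk from 8 libraries. Every group had been through oxygen-glucose deprivation, which the labels describe as glucose-free medium under a low-oxygen atmosphere followed by a return to glucose and normal oxygen. The groups were 10panx1 at 9 h (3 libraries), control at 9 h (3 libraries), 10panx1 at 6 h (1 library) and control at 6 h (1 library). 10panx1 is a peptide that blocks channels of pannexin 1, and the study asked which transcripts differ when it is added to the deprivation.

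Several features of the samples limit what these values can show. The protocol describes deprivation for 9 h and then recovery, but from what moment the 6 h and 9 h of the titles run is not in the labels, which also name no control peptide and no culture without deprivation. One library at 6 h has 10panx1 in its title but not among its treatments, and its group here follows the title. Replicates are not said to be separate cultures, and the spread against which the p-values are set may be technical. BV2 is 1 line, and in bulk RNA fewer cells of a type and less RNA per cell cannot be told apart. Libraries held from 18056693 to 23164860 counts. All 12 microglia and macrophage markers examined averaged at least 1 TPM (transcripts per 1000000), which does not separate microglia from other macrophages or identify the line. Control replicate 3 at 9 h stood apart, with 82 genes raised there alone, none of them among the 10. Markers of hepatocytes and blood plasma summed to 0.727 to 1.15 TPM in 10panx1 libraries at 9 h and reached 299 TPM in that control library. Summed markers of neurons, astrocytes, oligodendrocytes, red cells and lymphoid cells were at most 4.13 TPM in any library, and those of fibroblasts at most 0.637 TPM in 10panx1 and 17.9 TPM in control libraries at 9 h. Neuronal markers summed to 1.02 to 1.53 TPM in 10panx1 and 2.07 to 2.81 TPM in control libraries at 9 h.

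In the second part of glycolysis, triose phosphates are oxidized to pyruvate, and ATP is made without oxygen at the steps of phosphoglycerate kinase and pyruvate kinase. When oxygen is short, lactate dehydrogenase reduces pyruvate to lactate and so regenerates the NAD+ that glyceraldehyde-3-phosphate dehydrogenase needs, and lactate leaves the cell with a proton through monocarboxylate transporters. Many of these genes are textbook targets of the hypoxia-inducible factors (HIFs), which bind short response elements, and activated microglia and macrophages are known for high rates of glycolysis.

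Promoters are shown for the 3 genes with the largest 9 h against 6 h differences, Pgk1, Pkm and Ldha, and for Slc16a3, the only member called lower at 9 h in the edgeR fit. They were picked after the values were seen. Each is 300 bases, from 250 before to 50 after a start site, written 5′ to 3′ on the gene's strand, from RefSeq on GRCm38.p6. Capitals mark ACGTG and GCGTG, core letters of the HIF response element, on either strand, so that a match on the other strand reads CACGT or CACGC. Every CACGTG, the E-box, holds an ACGTG on each strand.
Pgk1, chrX:106186850-106187149, plus strand: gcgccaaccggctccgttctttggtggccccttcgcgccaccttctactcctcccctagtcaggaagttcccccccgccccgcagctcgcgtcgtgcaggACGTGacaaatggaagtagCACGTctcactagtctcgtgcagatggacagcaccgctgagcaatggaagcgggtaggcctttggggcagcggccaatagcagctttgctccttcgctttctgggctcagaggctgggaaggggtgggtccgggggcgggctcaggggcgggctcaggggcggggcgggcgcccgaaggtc
Pkm, chr9:59656977-59657276, plus strand: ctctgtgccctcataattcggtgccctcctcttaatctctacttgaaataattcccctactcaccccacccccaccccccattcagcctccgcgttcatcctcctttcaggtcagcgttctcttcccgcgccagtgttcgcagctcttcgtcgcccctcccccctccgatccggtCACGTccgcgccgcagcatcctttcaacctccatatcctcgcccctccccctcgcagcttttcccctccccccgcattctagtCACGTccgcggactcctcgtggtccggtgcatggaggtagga
Ldha, chr7:46845554-46845853, plus strand: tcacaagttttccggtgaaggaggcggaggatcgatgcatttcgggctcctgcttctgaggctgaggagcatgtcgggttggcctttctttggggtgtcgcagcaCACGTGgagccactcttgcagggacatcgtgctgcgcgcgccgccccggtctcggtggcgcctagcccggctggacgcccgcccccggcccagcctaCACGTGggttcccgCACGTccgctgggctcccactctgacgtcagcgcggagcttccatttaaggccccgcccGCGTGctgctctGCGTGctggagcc
Slc16a3, chr11:120948817-120949116, plus strand: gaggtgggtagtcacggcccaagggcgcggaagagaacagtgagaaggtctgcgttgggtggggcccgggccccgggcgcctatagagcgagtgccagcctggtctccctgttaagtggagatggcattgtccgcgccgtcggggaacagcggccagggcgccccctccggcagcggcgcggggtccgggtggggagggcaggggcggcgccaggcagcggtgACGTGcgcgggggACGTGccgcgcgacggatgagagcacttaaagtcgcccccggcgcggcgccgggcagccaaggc

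The Ldha window had 7 matches, 5 of ACGTG and 2 of GCGTG, and 4 of the 5 lay in its 2 CACGTG hexamers. The windows of Pgk1, Pkm and Slc16a3 had 2 ACGTG matches each and no CACGTG. Pkm and Ldha had 2 windows each, of which the one with the most matches is shown. The other window of Pkm had no match, and that of Ldha had 2 GCGTG matches and no ACGTG. Matches were thus present in the window of Slc16a3 as in those shown for the 3 genes that were higher at 9 h. All 10 members had a promoter in the table. Taking the window with the most matches per gene, 8 of 10 members held ACGTG or GCGTG, against 46.7% of 27025 genes. ACGTG was held by 7 members, against 21.3% of genes, and Gpi1 and Tpi1 had neither core. Eno1 held GCGTG alone. Ldha was the only member with CACGTG, which 7.94% of genes held, and the only one with 4 or more matches, which 4.43% of genes had. Genes with more windows have more chances of a match under this rule. Over all windows, 12 of the 16 of members held ACGTG or GCGTG, against 43.8% of 32851. These matches are letters in a window and no measure of binding.

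Levels between genes were compared in TPM, which the authors scaled by transcript length. The 10 genes together took 3.49%, 3.72% and 3.49% of TPM in 10panx1 libraries at 9 h and 3.41%, 3.38% and 3.33% in control libraries at 9 h. At 6 h they took 2.94% in the 10panx1 library and 2.98% in the control library. The share was thus higher in each 9 h library than in either 6 h library, and at 9 h the 10panx1 libraries all lay above the controls.

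Pkm, whose pyruvate kinase makes the final ATP of the pathway, had the highest level, with a mean of 7262 TPM over the 8 libraries, the 4th highest of all genes. Eno1, which encodes enolase and makes phosphoenolpyruvate, averaged 5394 TPM and Ldha, the lactate dehydrogenase A subunit, 5289 TPM. Eno1 lay above Ldha in 4 of 8 libraries, so these neighbours in the order were not separated. Pgk1, phosphoglycerate kinase, averaged 5011 TPM, Aldoa, the aldolase that splits fructose-1,6-bisphosphate, 3850 TPM, and Tpi1, which interconverts the triose phosphates, 2957 TPM. Pgam1, the phosphoglycerate mutase, averaged 1714 TPM and Gpi1, which turns glucose-6-phosphate into fructose-6-phosphate, 1241 TPM. The lowest levels were those of Slc16a3, the lactate exporter MCT4, at 438 TPM and of Gapdh, glyceraldehyde-3-phosphate dehydrogenase, at 281 TPM. The last place of Gapdh depends on how reads were assigned. Near-identical copies, described below, held 157% of its mean count and are not in its TPM. Apart from Eno1 and Ldha, each gene lay above its next lower neighbour in 8 of 8 libraries.

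**Figure D1:**
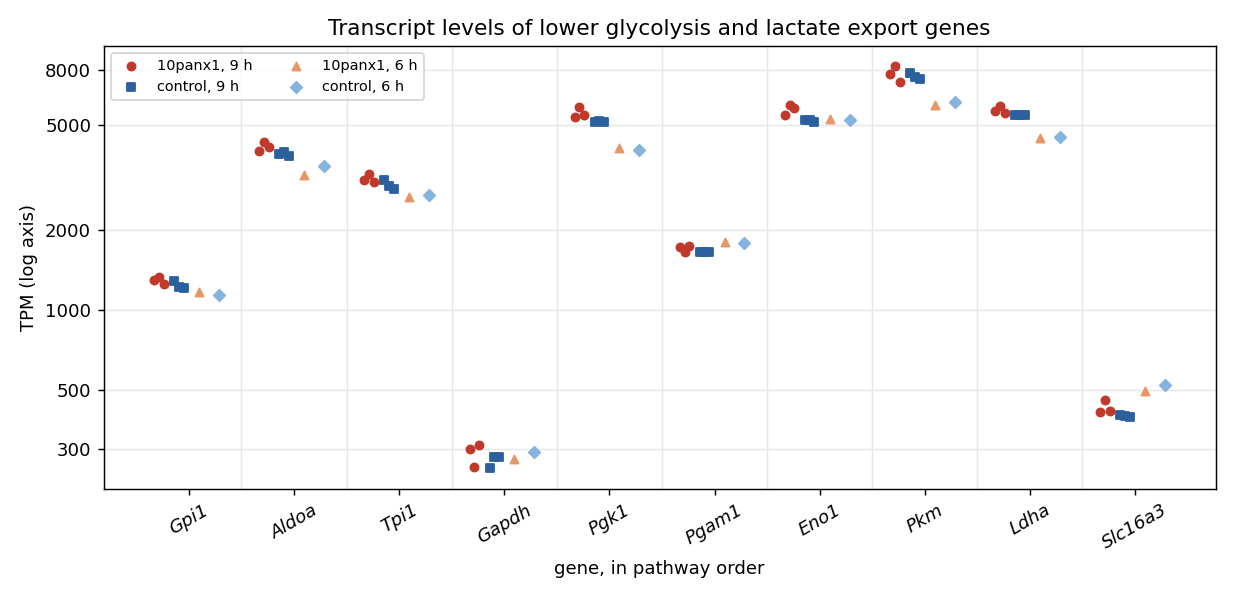
TPM (log axis) of the 10 genes in pathway order, with 1 symbol per library for 10panx1 at 9 h, control at 9 h, 10panx1 at 6 h and control at 6 h. Means over the 8 libraries ran from 281 TPM for Gapdh, without its near-identical copies, to 7262 TPM for Pkm. The differences between groups of 1 gene are small beside those between genes.

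Gapdh, often used as a reference transcript, is the least certain of these values. In the GENCODE M21 transcripts, 71 other genes of the table carried a stretch at least 95% identical to at least 50% of its longest open reading frame, most of them processed pseudogenes by background knowledge. Rows of these copies held 12430, 14546 and 13039 counts in 10panx1 libraries at 9 h and 13113, 11732 and 10551 in control libraries at 9 h. Gapdh itself held 8216, 6863 and 9149 counts in the same 10panx1 libraries and 6880, 7690 and 6854 in the same controls. At 6 h the copies held 8554 counts in the 10panx1 library and 10057 in the control library, while Gapdh held 6190 in the 10panx1 library and 8048 in the control library. The copies thus held more counts than Gapdh in every library, 157% of its mean. Copies of the other members held fewer counts: 3 copies of Eno1, among them Eno1b, held 2.82% of its mean count, 1 copy of Pgam1 held 1.55%, and 1 of Pkm 0.881%. How the counting treated reads that fit several places is not given in the sources used here.

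**Figure D2:**
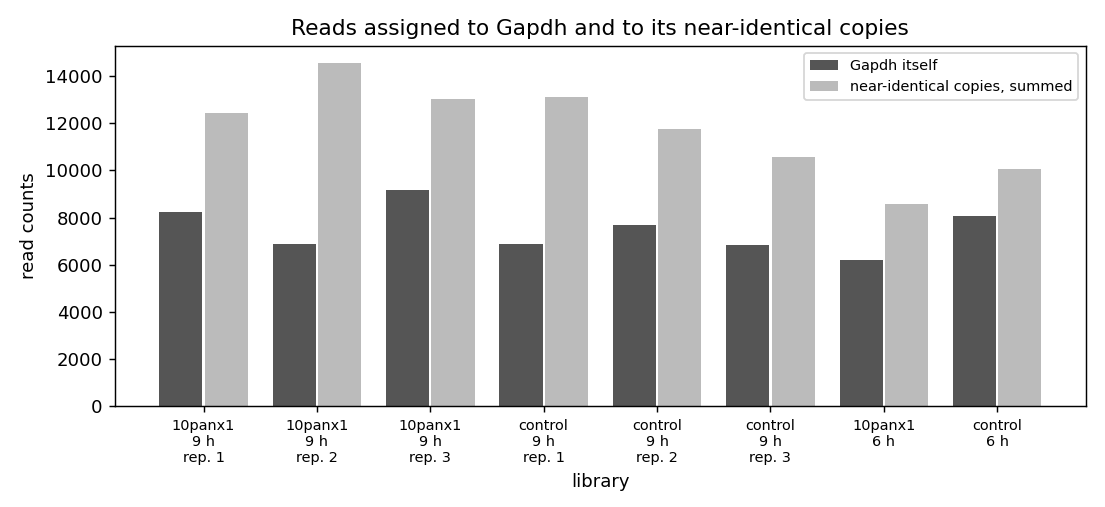
Read counts assigned to Gapdh and, summed, to its 71 near-identical copies in each of the 8 libraries, with 10panx1 left of control at each time. The bar of the copies is above that of Gapdh in every library.

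The main difference in these genes was between the times. At 9 h against 6 h, 7 of the 10 rose and 1 fell, while Gapdh and Pgam1 passed no threshold, in an edgeR quasi-likelihood fit to the 8 libraries with a term for treatment, adjusted after Benjamini and Hochberg. The threshold was an adjusted p under 0.05. The same test called 59.8% of the 15331 tested genes, 30.3% higher and 29.6% lower, so that passing it was common among all genes. The median log2 fold change of the 10 genes was 0.27, against 0.01 for all tested genes. The 7 that rose were higher in every 9 h library than in both 6 h libraries, as 29.7% of all tested genes were. With 1 library per treatment at 6 h, any batch cannot be told apart from time. Summed TPM of the 12 microglia and macrophage markers also differed between times. It was 5198 to 5388 in 10panx1 libraries and 5290 to 5364 in control libraries at 9 h and 6420 to 6470 at 6 h. The share of mitochondrial counts was 1.14% to 1.28% at 9 h and 1.43% to 1.51% at 6 h, and 20305 to 21085 genes had a count at 9 h and 19131 to 19550 at 6 h. The part of these differences in the result was not tested.

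Pgk1, the first ATP-making step, had the highest estimate of the 10 genes. It had 5326, 5828 and 5443 TPM in 10panx1 and 5109, 5178 and 5129 TPM in control libraries at 9 h, against 4079 TPM in the 10panx1 and 4001 TPM in the control library at 6 h. The times were fully separated, and its log2 fold change was 0.51 (SE 0.039, edgeR, adjusted p = 3.97e-08), a 1.42-fold difference with a 95% interval from 1.34 to 1.51. Pkm had 7730, 8310 and 7227 TPM in 10panx1 and 7825, 7552 and 7419 TPM in control libraries at 9 h, against 5935 TPM in the 10panx1 and 6101 TPM in the control library at 6 h. The lowest 9 h library was a 10panx1 one, still above both 6 h libraries, and the log2 fold change was 0.46 (SE 0.042, edgeR, adjusted p = 2.42e-07). The gene makes both M1 and M2 pyruvate kinase by alternative splicing, and counts per gene do not separate them.

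Ldha, which turns pyruvate into lactate, had 5642, 5858 and 5541 TPM in 10panx1 and 5422, 5437 and 5437 TPM in control libraries at 9 h. At 6 h it had 4466 TPM in the 10panx1 and 4510 TPM in the control library, below all those at 9 h. Its log2 fold change was 0.42 (SE 0.035, edgeR, adjusted p = 9.27e-08). Slc16a3, which carries lactate out of the cell, went the other way. It had 414, 458 and 418 TPM in 10panx1 and 403, 398 and 396 TPM in control libraries at 9 h, against 494 TPM in the 10panx1 and 523 TPM in the control library at 6 h. Every 9 h library was below both 6 h libraries, as 29.6% of all tested genes were, and the log2 fold change was -0.19 (SE 0.048, edgeR, adjusted p = 0.00341). That call rested on the control library at 6 h: without it the estimate was -0.10 (adjusted p = 0.221). The estimate was -0.28 within control libraries (adjusted p = 0.000697) and -0.09 within 10panx1 libraries (adjusted p = 0.364), fits in which the lone 6 h library is assumed to vary like those at 9 h. Csnk1d, a kinase gene that overlaps Slc16a3 on the opposite strand, held 21.7% as many counts and rose by 0.59 on the log2 scale. Since the strand setting of the counting is not known, reads of the pair cannot be told apart. Genes overlapping other members held smaller shares: Iffo1 2.63% of Gapdh, Gm49759 1.41% of Pkm and Spsb2 0.264% of Tpi1, with less for Aldoa. Their log2 fold changes for time were 0.36 for Iffo1, -1.10 for Gm49759 and -1.42 for Spsb2. Gm49759 lies on the same strand as Pkm.

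The lactate genes therefore moved apart within each library. The ratio of Ldha to Slc16a3 in TPM was 13.6, 12.8 and 13.3 in 10panx1 libraries and 13.5, 13.7 and 13.7 in control libraries at 9 h. It was 9.04 in the 10panx1 library and 8.62 in the control library at 6 h. Such ratios do not depend on the scaling of a library. The ratio of Pgk1 to Eno1 lay between 0.941 and 1.00 in the 9 h libraries, against 0.774 in the 10panx1 and 0.770 in the control library at 6 h. These genes, which lie on either side of Pgam1 in the pathway, thus also changed unequally. The ratio of Ldha to Eno1 was between 0.958 and 1.06 at 9 h, against 0.847 in the 10panx1 and 0.868 in the control library at 6 h.

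**Figure D3:**
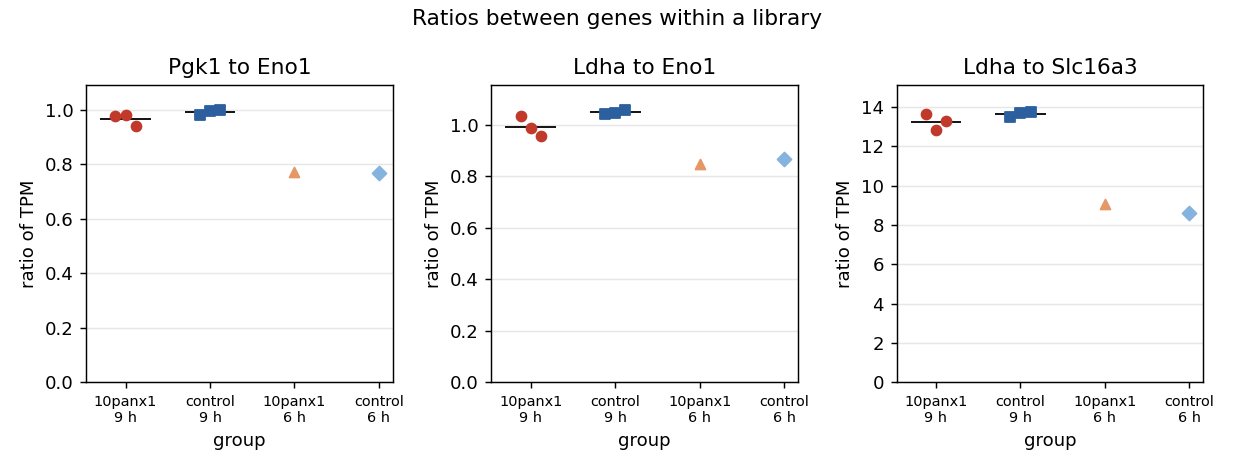
Ratios of TPM between 2 genes within a library, 1 symbol per library and a line at the mean of each 9 h group, for Pgk1 to Eno1, Ldha to Eno1 and Ldha to Slc16a3. The 9 h libraries lie above the 6 h libraries in each panel, and the ratio of Ldha to Slc16a3 is at least 12.8 at 9 h and at most 9.04 at 6 h.

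The enzymes upstream rose too, with smaller estimates than those of Pgk1, Pkm and Ldha. Aldoa had 3979, 4312 and 4109 TPM in 10panx1 and 3891, 3953 and 3813 TPM in control libraries at 9 h, against 3243 TPM in the 10panx1 and 3499 TPM in the control library at 6 h. Its log2 fold change was 0.36 (SE 0.047, edgeR, adjusted p = 9.65e-06), with no overlap between times. Tpi1, at 2861 to 3269 TPM in the 9 h libraries and 2657 TPM in the 10panx1 and 2722 TPM in the control library at 6 h, had a log2 fold change of 0.29 (SE 0.042, edgeR, adjusted p = 3.19e-05). Gpi1, at 1213 to 1329 TPM at 9 h and 1173 TPM in the 10panx1 and 1142 TPM in the control library at 6 h, had one of 0.24 (SE 0.037, edgeR, adjusted p = 4.90e-05).

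The steps between Pgk1 and Pkm, and Gapdh, had the estimates nearest to 0. Eno1 had 5446, 5932 and 5784 TPM in 10panx1 and 5198, 5191 and 5131 TPM in control libraries at 9 h, against 5271 TPM in the 10panx1 and 5196 TPM in the control library at 6 h. In TPM the times thus overlapped, while in the TMM-scaled counts per 1000000 (CPM) of the test they did not, and the log2 fold change was 0.17 (SE 0.040, edgeR, adjusted p = 0.00247). The call rested on the 10panx1 library at 6 h, without which it was 0.10 (adjusted p = 0.164), and within control libraries it was 0.10 (adjusted p = 0.0549). Pgam1 had 1724, 1660 and 1750 TPM in 10panx1 and 1661, 1662 and 1655 TPM in control libraries at 9 h, against 1810 TPM in the 10panx1 and 1787 TPM in the control library at 6 h. In TPM every 9 h library was thus below both 6 h libraries, but the log2 fold change in TMM-scaled CPM was 0.02 with a 95% interval from -0.07 to 0.10 (edgeR, adjusted p = 0.728). Gapdh, at 253 to 312 TPM at 9 h and 274 TPM in the 10panx1 and 292 TPM in the control library at 6 h, had one of 0.09 with an interval from -0.06 to 0.25 (edgeR, adjusted p = 0.274). When the counts of near-identical copies were added to each member, Gapdh was called higher, at 0.29 (edgeR, adjusted p = 2.58e-05), and Pgam1 stayed uncalled at 0.01 (adjusted p = 0.847).

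The scale mattered for the smaller differences. In limma fits on log2(TPM + 1) and log2(TPM + 0.1) the median of all genes moved to -0.11 and -0.12, and 37.6% and 38.2% of the calls were higher at 9 h, against 50.6% in the edgeR fit. Eno1 then had a log2 fold change of 0.06 in both fits (adjusted p = 0.315 and 0.303), and Pgam1 one of -0.09 in both (adjusted p = 0.0365 and 0.0338). Gapdh was at -0.02 in both. Pgk1, Pkm, Ldha, Aldoa, Tpi1 and Gpi1 were called higher in every one of the 19 alternatives, with a highest adjusted p of 0.0142, for Gpi1 on the log2(TPM + 1) scale.

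**Figure D4:**
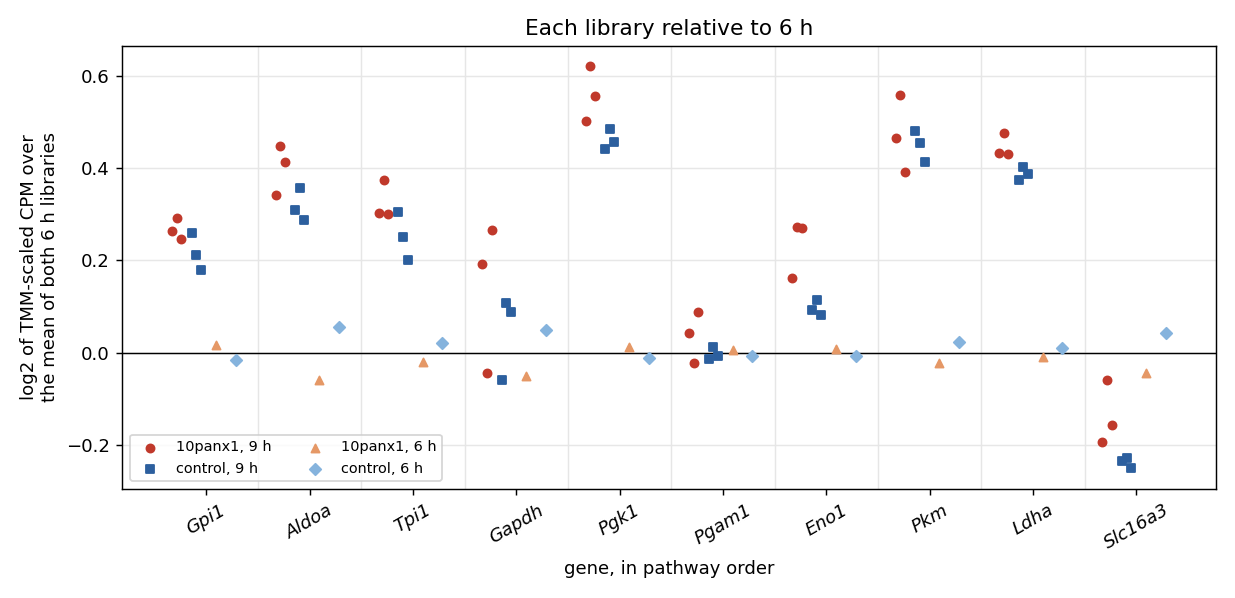
Log2 of TMM-scaled CPM of each library over the mean of both 6 h libraries, for the 10 genes in pathway order, with 10panx1 left of control at each time. All 9 h libraries of Pgk1, Pkm and Ldha lie above both 6 h libraries, those of Slc16a3 lie below both 6 h libraries, and those of Gapdh and Pgam1 overlap the 6 h values.

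With 10panx1 against control at 9 h, none of the 10 genes was called by edgeR, against 9.21% of 13392 tested genes. At an unadjusted p under 0.05 there were 3 of 10, against 24.3% of tested genes, and DESeq2 called 1, Eno1, at an adjusted p under 0.05. All 10 estimates were above 0, as were 49.1% of those of all genes, and ran from 0.03 to 0.14 with a median of 0.08, against -0.00 for all genes. These signs cannot be counted as independent, since the 10 estimates come from the same 6 libraries. Most of the 10 genes, though not Gapdh, Pgam1 and Slc16a3, varied closely together over the 8 libraries. That includes the difference between times, and correlation within the 9 h libraries was not computed. Pgk1, Eno1, Ldha and Slc16a3 were higher in every 10panx1 library than in every control library in TMM-scaled CPM, as 14.0% of tested genes were, and none of the 10 was lower in every one, as 15.0% were.

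Eno1 came nearest to the threshold. In its values given above, the lowest 10panx1 library at 9 h, with 5446 TPM, lay above the highest control, with 5198 TPM. Its log2 fold change was 0.14 (SE 0.043, edgeR, adjusted p = 0.0517), a 1.10-fold difference with an interval from 1.04 to 1.17. It was called in 7 of 17 alternatives, among them DESeq2 (adjusted p = 0.0229), limma-voom (0.0267) and the fit without 10panx1 replicate 1 (0.0291, estimate 0.18), and its highest adjusted p was 0.186. Eno1b, a near-identical copy of Eno1, was called higher, at 105.4 ± 11.1 CPM in 10panx1 and 87.6 ± 2.97 CPM in control libraries (SD, n = 3 each), with a log2 fold change of 0.27 (edgeR, adjusted p = 0.0213). Its call was lost without 10panx1 replicate 3 (adjusted p = 0.110), control replicate 1 (0.0908) or control replicate 2 (0.0612), and reads of the pair may be exchanged.

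Pgk1 had a log2 fold change of 0.10 with a 95% interval from 0.01 to 0.19 (edgeR, adjusted p = 0.154), and Slc16a3 one of 0.10 from 0.01 to 0.20 (edgeR, adjusted p = 0.169). For Ldha the estimate was 0.06 from -0.02 to 0.14, and for Pkm 0.03 from -0.07 to 0.12. The sign of Pkm turned without 10panx1 replicate 2, to -0.02. Aldoa, Tpi1, Gapdh, Gpi1 and Pgam1 had estimates of 0.09, 0.07, 0.10, 0.05 and 0.04. Among the 10 genes the highest upper limit was 0.24, for Gapdh. With control replicate 3 left out, none of the 10 was called and Eno1 was at 0.13 (adjusted p = 0.150).

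At 6 h, with 1 library of each kind and no test, 4 of the 10 genes had a log2 ratio of 10panx1 to control above 0, as 49.3% of genes did, and 6 had one below 0, as 48.6% did. Their ratios ran from -0.11 for Aldoa to 0.03 for Gpi1. The difference of the 10panx1 effect between 9 h and 6 h was called for none of the 10 and for none of 15331 genes (0%) by edgeR or DESeq2. At an unadjusted p under 0.05 there were 874 genes (5.70%), among them Aldoa and Slc16a3. All 10 estimates were above 0, as 48.2% of all were, from 0.02 for Gpi1 to 0.20 for Aldoa (unadjusted p = 0.0248, adjusted p = 0.865). That of Slc16a3 was 0.19 (unadjusted p = 0.0457, adjusted p = 0.872).

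**Figure D5:**
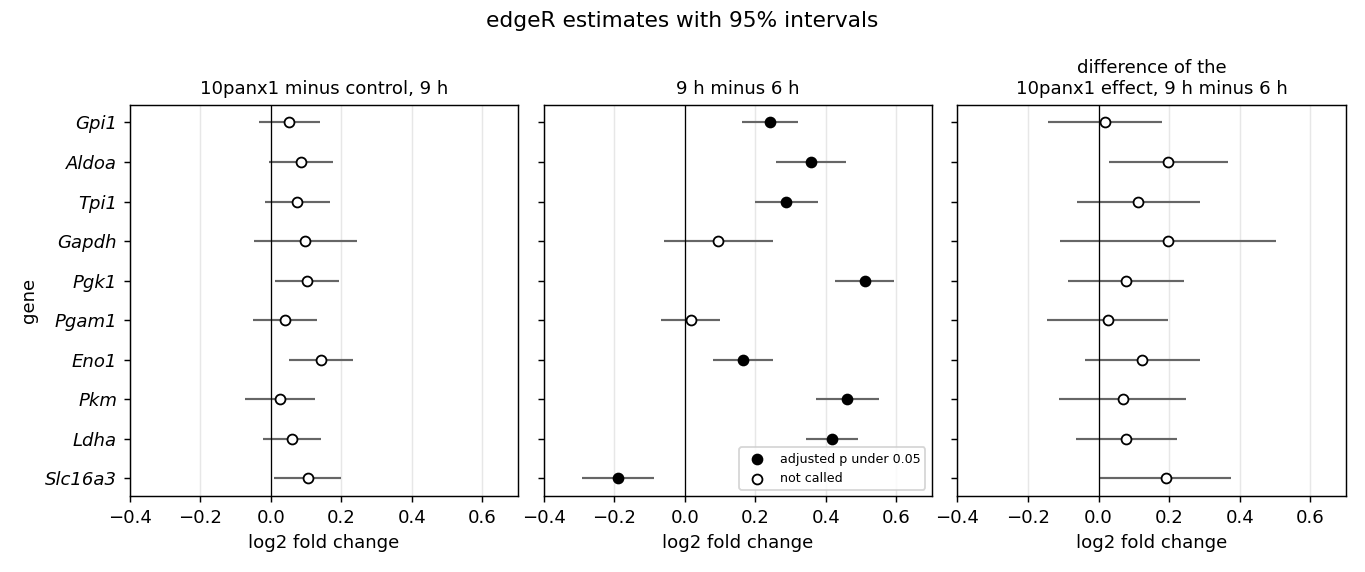
Log2 fold changes of the 10 genes from edgeR with 95% intervals, for 10panx1 minus control at 9 h, 9 h minus 6 h, and the difference of the 10panx1 effect between the times. Filled symbols mark an adjusted p under 0.05, which 8 genes reached in the middle panel and none in the outer panels.

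The listed isozymes of these enzymes, among which related enzymes such as Bpgm and Ldhd were counted, were mostly scarce. Of 17 listed, 8 averaged at least 1 TPM: Eno1b at 143 TPM, Aldoc at 112 TPM, Eno3 at 48.7 TPM, and Pgam2, Bpgm, Gapdhs, Eno4 and Ldhd below these. Ldhb, the heart-type lactate dehydrogenase subunit, had 3 counts in all 8 libraries together, and Pklr, the liver and red cell pyruvate kinase, had 2. Of 9 isozymes tested for time, 2 rose and 2 fell, against 30.3% and 29.6% of all genes. Pgam2, the muscle mutase, rose by 3.20 on the log2 scale, at 4.72 ± 0.528 CPM in the 9 h libraries (SD, n = 6) and 0.350 to 0.690 CPM in the 6 h libraries (edgeR, adjusted p = 4.14e-08). Eno3, the muscle enolase, rose by 0.49, Bpgm, which makes 2,3-bisphosphoglycerate, fell by 1.06 and Gapdhs, the sperm isozyme, fell by 1.49. Aldoc, Eno1b, Eno4 and Ldhd had estimates of -0.11, -0.16, 0.29 and 0.26 and were not called. Aldoc was called lower on both TPM scales (-0.22 in each, adjusted p = 0.0351 and 0.0356). Eno1b was called lower in 7 alternatives. These were no filter (-0.15, adjusted p = 0.0274), upper quartile scaling (-0.19, 0.0339), both TPM scales (-0.27 in each, 0.00989 and 0.0101) and control libraries alone (-0.26, 0.00946). The others were the fits without 10panx1 replicate 3 at 9 h (-0.20, adjusted p = 0.0112) and without the 10panx1 library at 6 h (-0.27, 0.0309). With 10panx1 at 9 h, Eno1b was the 1 isozyme of 8 tested that was called. Pgam2 was at 0.19, Bpgm at -0.26, Eno3 at 0.05, Ldhd at 0.39, Aldoc at -0.07, Gapdhs at -0.04 and Eno4 at -0.01.

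The other lactate transport genes were called in both directions. Bsg, the chaperone that brings both main transporters to the cell surface, had 770 ± 24.2 CPM in the 9 h libraries (SD, n = 6) and 510 to 539 CPM in the 6 h libraries, a log2 fold change of 0.55 (edgeR, adjusted p = 7.76e-08). Slc16a1, the transporter MCT1, had 168 ± 20.7 CPM at 9 h and 248 to 269 CPM in the 6 h libraries, a log2 fold change of -0.63 (edgeR, adjusted p = 2.96e-07). Slc16a1 and Slc16a3 were thus both lower at 9 h, while their chaperone was higher. Emb, another chaperone of MCT1, fell by 0.42, so that of 4 genes tested on the list 2 rose and 2 fell, against 30.3% and 29.6% of all tested genes. The other that rose was Slc16a8, a transporter known from retinal pigment epithelium, named after its values were seen, with means of 3.62 TPM at 9 h and 1.38 TPM at 6 h. With 10panx1 at 9 h, Slc16a1 had 151 ± 6.88 CPM, against 184 ± 14.6 CPM in controls (SD, n = 3 each), a log2 fold change of -0.28 (edgeR, adjusted p = 0.00747), and it was the only one of the 4 called, against 9.21% of all tested genes. Its call was lost on both TPM scales (adjusted p = 0.0669 and 0.0664).

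In glucose uptake and upper glycolysis, 7 of 14 tested genes rose and 3 fell at 9 h against 6 h, while 30.3% of all tested genes rose and 29.6% fell. The list's median log2 fold change was 0.19, against 0.01 for all genes. Pfkfb3, whose product makes the activator of phosphofructokinase, rose by 2.11 on the log2 scale, at 168 ± 5.04 CPM in the 9 h libraries (SD, n = 6) and 38.7 to 39.1 CPM in the 6 h libraries. The glucose transporter Slc2a3 rose by 1.87 and the phosphofructokinase Pfkp by 0.63. All 3 estimates were above the highest of the 10 genes, 0.51, but differences between genes were not tested. With 10panx1 at 9 h, 4 of 14 rose and 2 fell, against 5.06% and 4.14% of all tested genes. Slc2a3 had 732 ± 52.0 CPM with 10panx1 and 557 ± 26.9 CPM in controls (SD, n = 3 each), a log2 fold change of 0.40 (edgeR, adjusted p = 0.00130). The hexokinase Hk1 had one of 0.26 (edgeR, adjusted p = 0.0153), lost without control replicate 1 (0.0528) or 2 (0.0584). Tigar, which lowers fructose-2,6-bisphosphate, had one of -0.43 (edgeR, adjusted p = 0.00156).

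Genes around the pyruvate and lactate steps were called in both directions. Of the genes of pyruvate fate and redox shuttles, 4 of 21 rose and 7 fell at 9 h against 6 h, where 30.3% of all tested genes rose and 29.6% fell. Gpt2, the mitochondrial alanine transaminase, rose by 0.59 on the log2 scale, while Pdk1, a kinase that shuts pyruvate dehydrogenase, fell by 0.50 and Pdp1, the phosphatase that opens it, fell by 1.54. Of the branches from glycolysis, 4 of 18 rose and 7 fell. Pgm1, which leads to glycogen, rose by 0.87, and the pentose phosphate enzymes G6pdx and Taldo1 fell by 0.63 and 0.43.

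With 10panx1 at 9 h, 2 of 20 pyruvate genes rose and 1 fell, against 5.06% and 4.14% of all tested genes. Pdk1 had a log2 fold change of 0.20 and the malic enzyme Me2 one of 0.20, while Pdp1 was at -0.89 with under 3 CPM on average in either group. These calls were thin. That of Pdk1 was lost without 10panx1 replicate 2 or 3 or control replicate 1 or 3 (adjusted p from 0.0511 to 0.0687). That of Me2 was lost without 10panx1 replicate 2 or 3 or any control replicate (adjusted p from 0.0596 to 0.0828). That of Pdp1 was lost without 10panx1 replicate 1 or 3 or control replicate 1 or 3 (adjusted p from 0.0786 to 0.124). Of 17 branch genes 1 rose and 1 fell, beside the same shares of all genes: the glycogen synthase Gys1 was at 0.31 (edgeR, adjusted p = 0.00494; 0.0593 on the log2(TPM + 1) scale), and Gpd1l, a glycerol-3-phosphate dehydrogenase homologue, was at -0.46 (edgeR, adjusted p = 0.00220).

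Of the 18 genes listed as HIF targets outside glycolysis, 12 rose at 9 h and none fell, against 30.3% and 29.6% of all genes. The list does not hold every HIF target, and Pdk1, counted with the pyruvate genes, fell. Within the list the median log2 fold change was 0.34. Rora, a nuclear receptor, rose by 1.87, Vegfa, the angiogenic growth factor, by 1.15 and Anxa2, a membrane-binding annexin, by 0.62 on the log2 scale. Of the regulators of glycolytic genes, 5 of 15 rose and 7 fell. Arrdc4, an arrestin that restrains glucose uptake, rose by 0.96 and Arnt, the partner of the HIF alpha subunits, by 0.48, while Mlxip, a glucose-sensing transcription factor, fell by 0.72. With 10panx1 at 9 h, 4 of 18 HIF targets rose and 1 fell, against 5.06% and 4.14% of all tested genes in that comparison. Ndrg1, a stress-response gene, and the thiol oxidase Ero1a had log2 fold changes of 0.33 and 0.24, and Higd1a, a mitochondrial protein, one of -0.26. Of 14 regulators 2 rose and 1 fell with 10panx1, beside those same shares. The HIF prolyl hydroxylases Egln3 and Egln1 were at 0.46 and 0.23 and Egln2 at -0.26 (edgeR, adjusted p = 0.0392), the last lost without any 10panx1 replicate or control replicate 2 or 3 (adjusted p from 0.0649 to 0.144).

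Across the 8 libraries, most of the 10 genes followed their common mean in log2 CPM. Pearson's r with that mean was 0.99 for Aldoa and Pgk1, 0.98 for Ldha, 0.97 for Tpi1, 0.96 for Gpi1, 0.94 for Pkm and 0.90 for Eno1. It was 0.43 for Gapdh, 0.32 for Pgam1 and -0.58 for Slc16a3. Members are part of the mean, and the 6 h libraries weigh heavily in all these values. The share of all genes with as high an r was not computed. Of all tested genes, 29.7% were higher in every 9 h library than in both 6 h libraries. Among 10703 genes with a mean of at least 50 counts, the 5 other genes most like it were Tcf25, Myo7b, Ppme1, Fdft1 and Igsf9, with r from 0.992 to 0.997.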

How the data were processed

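The authors deposited, for each of the 8 libraries, read counts per gene and TPM. Per the labels' protocols, libraries were directional and made from poly(A) RNA. The submitters' processing notes list FastQC, Trimmomatic, STAR, featureCounts, DESeq2 and GRCm38, with neither version nor role. The sources used here do not give the strand setting or the treatment of multi-mapping reads. Of 51991 nuclear rows only 2.74% start where the GRCm38 annotation puts them, so no gene coordinates of the deposited table are given.

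Of 57010 rows, 151 that repeated a symbol were dropped, one of Aldoa among them, whose 2 rows had identical counts. Tests on these counts used edgeR 4.0.16 in R 4.3.3 (TMM, filterByExpr, quasi-likelihood, Benjamini-Hochberg): 9 h in its 6 libraries with no block, time and the interaction in all 8. DESeq2 1.42.0, limma 3.58.1 and other settings were alternatives. Near-identical copies were found with blastn 2.17.0 and their counts added in a fit chosen after seeing the data. All 10 members, up to 3 called genes of the smallest p per list, isozymes of at least 1 TPM and the 5 genes most like the members were named. Members and lists were chosen with earlier results of these data known. The scripts were checked on simulated counts. Python 3.11.15, pandas 2.3.3 and matplotlib 3.10.9 made summaries and plots. Replicate libraries differed by more than counting noise (chi-square per degree of freedom 3.84 to 6.46) and all were kept.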

Additional observations from a re-analysis of the deposited data

How the results depend on the processing

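At 9 h the number of genes called with 10panx1, 1233, was 368 and 371 in limma fits on log2(TPM + 1) and log2(TPM + 0.1), and 598 to 1433 when 1 library was left out, with 598 without control replicate 1, 600 without 10panx1 replicate 3, 676 without 10panx1 replicate 2 and 695 without control replicate 2. With the replicate number as a block it was 1850, and Eno1 was called (adjusted p = 0.0219). The numbers were not taken as pairs, since the labels do not say that they mark shared cultures. Same-numbered libraries correlated in their deviations by 0.09, -0.01 and 0.07, and differently numbered ones by -0.11 to 0.04. Members called at 9 h were 1, Eno1, with no filter, DESeq2, limma-voom, all 8 libraries, the replicate block and added copies, and 0 to 1 with a library left out. The interaction, with 0 genes called, gave 34 with no filter and 0 to 1 with a library left out. For time, 7 to 9 members and 6652 to 9443 genes were called over its 19 alternatives, not always the same members: on both TPM scales Eno1 was not called and Pgam1 was called lower, and Gapdh was called with added copies. On both TPM scales the 9 h calls of Hk1, Eno1b, Slc16a1, Pdk1, Me2, Pdp1, Gys1 and Egln2 were lost. Signs turned only in estimates not called as reported. At 9 h these were Pkm (-0.020 without 10panx1 replicate 2), Aldoc (0.00415 without control replicate 1), Gapdhs (0.17 without 10panx1 replicate 3, 0.074 without control replicate 1) and Eno4 (0.00243 without 10panx1 replicate 1, 0.0002 without control replicate 2, 0.17 without 10panx1 replicate 2, 0.095 without control replicate 3). For time they were Gapdh (-0.017 on both TPM scales, -0.0093 without the 10panx1 library at 6 h, -0.00021 in control libraries), Pgam1 (-0.017 with upper quartile scaling, -0.094 on both TPM scales, -0.0045 without the 10panx1 library at 6 h), Eno4 (-0.069 without the control library at 6 h, -0.058 in 10panx1 libraries) and Ldhd (-0.094 without the 10panx1 library at 6 h, -0.086 in control libraries). The cause was not tested. Depth does not limit the 10 genes, the least of which had 6190 counts, while 3 counts at 6 h are 0.139 and 0.166 CPM. The single libraries at 6 h do limit them, since no spread can be had there.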
